A study of Arabidopsis thaliana with 8 samples.

Results

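The response to high zinc was described in seedlings of dez, a mutant of *Arabidopsis thaliana*. As background, dez is a mutant of TRICHOME BIREFRINGENCE (AT5G06700, TBR for short), whose relatives, the TBL genes, add acetyl groups to polysaccharides of the wall. By their titles, 4 of the 8 arrays of the series held this material. 2 arrays were of dez on control medium with 1 µM zinc and 2 of dez on high-zinc medium with 100 µM zinc, and the remaining 4 arrays held wild type on the same media. All seedlings were 7 days old and had been kept in the dark on modified Hoagland medium. Whole seedlings were harvested under dim green light, about 45 per biological replicate, so each array read a pool of seedlings and of all their organs. The labels name the mutant and no allele, and do not say whether it was 1 line. Transcript levels were read on Affymetrix ATH1 arrays, which group short probes into probe sets, and the number of arrays limits the precision. Of 22810 probe sets, 13648 were bright enough to be tested. Of 46 marker genes of root hairs, endodermis, xylem, guard cells, seed storage and dark-grown seedlings 1 was tested, the oleosin gene OLEO3, so the labelled tissue could not be checked on its own markers. The dez control arrays read 92.3 and 61.9 for OLEO3 and the dez high-zinc arrays 27.3 and 24.6.

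Zinc is a cofactor of many enzymes and transcription factors, and in excess it competes with iron and other metals for transporters and binding sites. Plants take up and store zinc with metal transporters, chelators and the vacuole, and excess zinc is known to bring on iron deficiency responses and oxidative stress. Seedlings in the dark grow by elongation of the hypocotyl, which depends on auxin, on loosening of the cell wall and on reserves from the seed. Their plastids are etioplasts, which hold chlorophyll precursors and already carry transcripts for photosynthetic proteins. Pectin methylesterases, xyloglucan enzymes, expansins, peroxidases and acetyltransferases set the properties of the wall.

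High zinc changed the transcript levels of dez seedlings widely. Among genes grouped by function, rises were more frequent than falls for WRKY factors, class III peroxidases, glycosyltransferases, beta-glucosidases and aliphatic glucosinolate genes, each counted below. Falls were more frequent than rises for photosynthesis, chlorophyll synthesis, plastid-encoded, tubulin and auxin response genes. The lists behind all such groups hold 2790 genes, of which 307 were tested. Counts by function therefore describe the tested members alone and not whole families. 4645 of 13648 probe sets passed the threshold of a limma adjusted p under 0.05, which is 34.0% of those tested. Of these 2271 (16.6%) were higher and 2374 (17.4%) were lower on high zinc. In wild type 96 probe sets passed the same test (0.703%). Among probe sets of 1 named gene 31.7% were called for zinc in dez, and among genes with a symbol 36.8%, which is the background for the counts of named genes. Leaving out dez control replicate 1 gave 2964 calls and leaving out dez control replicate 2 gave 2868. The 2 arrays of one dez group lay beyond both arrays of the other for 71.6% of the tested probe sets, called or not. The median change over all tested probe sets was 0.01 on the log2 scale, and the central 95% of changes lay between -1.02 and 1.16. All changes here are differences of the mean log2(intensity + 16), with SE from limma, and all tests are two-sided with n = 2 arrays per group.

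At least 4-fold changes were more often rises. 442 probe sets were at least 2-fold higher and 363 at least 2-fold lower, 83 were at least 4-fold higher and 25 lower, and 22 were at least 8-fold higher and 5 lower. Probe sets with large rises began dim and those with large falls began bright. Those at least 4-fold higher had a median intensity of 33.1 without and 331 with high zinc. Those at least 4-fold lower had one of 494 without and 61.0 with it, against 83.5 and 84.8 over all tested probe sets. The pseudocount bounds the fall of a dim gene, and with a pseudocount of 1 there were 603 probe sets at least 2-fold higher and 599 lower, and 137 at least 4-fold higher and 61 lower. The brightness filter used the mean over all 8 arrays, so a probe set dim elsewhere could be tested through its dez high-zinc arrays. The dim start of large rises, and their number, may therefore follow in part from the filter.

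Technical measures also moved with zinc in dez, and their part in the result was not tested. The mean log2 intensity of the poly-A spike controls was 7.28 and 7.09 on control medium and 6.94 and 6.61 on high zinc. Scaling each array to these controls added 0.41 to every log2 change in dez and turned the split into 1058 probe sets higher and 98 lower. Of the called genes selected for naming or named here, 72 of 86 rises and 23 of 90 falls passed under that scaling, so a fall given below without mention of it may not pass there. The 25S rRNA control had log2 intensities of 7.84 and 8.52 on control medium and 8.79 and 10.48 on high zinc. The control probe sets of actin and GAPDH read brighter at the 3' than at the 5' end, by a mean log2 value of 1.57 and 1.36 on control medium against 1.21 and 1.19 on high zinc. With that gap as a covariate 1655 probe sets were higher and 1868 lower.

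The response of dez differed from that of wild type at many genes. For 2653 probe sets (19.4%) the change with zinc differed between the genotypes, the interaction, with 1210 more positive in dez (8.87%) and 1443 more negative (10.6%). The plot of the change in dez against that in wild type shows most called probe sets close to the vertical axis, where wild type had changes near 0. FACT, an enzyme of alkyl caffeate waxes, lay far to the right. In wild type it read 15.8 and 20.1 without high zinc and 115.4 and 99.3 with it, against 31.1 and 22.5, then 52.2 and 35.3, in dez. The interaction of FACT was -1.39 ± 0.22 (limma adjusted p = 0.00167). OCT1, an organic cation transporter, fell in dez from 53.3 and 47.3 to 8.6 and 9.0, and read 254.7 and 233.7 and then 102.7 and 96.3 in wild type. Its interaction was -0.25 ± 0.15 and did not pass (limma adjusted p = 0.299). The dez high-zinc readings lay below the pseudocount of 16, which shrinks the fall in dez, so this test cannot tell whether the genotypes differed.

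**Figure D1:**
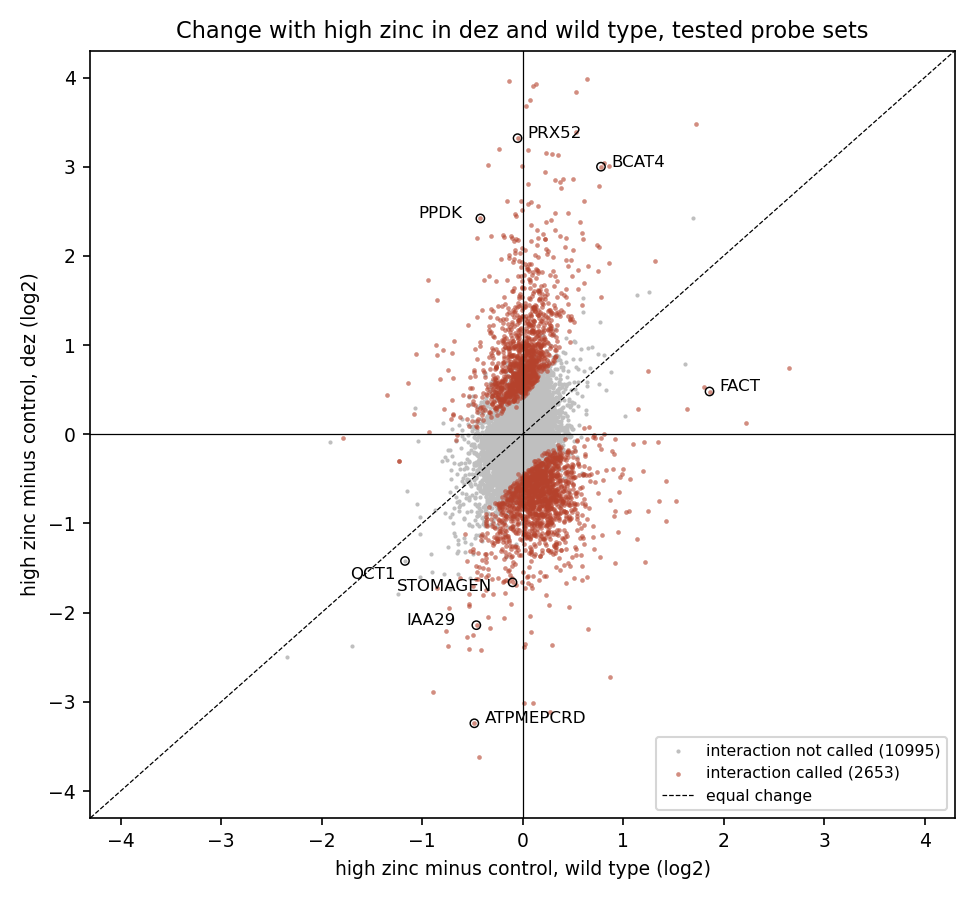
Change with high zinc in dez (vertical axis, log2) against the change in wild type (horizontal axis, log2) for the 13648 tested probe sets, each point a probe set and red where the interaction passed a limma adjusted p under 0.05 (2653 probe sets). The dashed line marks equal change, and most red points lie above or below 0 on the dez axis with little change in wild type.

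Several regulators and receptors of defence and stress rose. Of 5 tested genes of the WRKY family, transcription factors of defence and senescence, 4 rose and none fell, with a median change of 1.28 against 0.01 over all tested probe sets. The list held 67 genes. WRKY53, which acts in senescence and defence, read 20.0 and 19.0 on control medium and 127.0 and 115.2 on high zinc. It was dim on the wild-type arrays too, and its bright arrays counted in the brightness filter. The place of WRKY53 in these counts is therefore not independent of its rise. WRKY47 read 55.9 and 58.0, then 163.4 and 189.1, and WRKY6, a regulator of senescence and phosphate transport, 50.2 and 44.6, then 133.7 and 141.8. In each of these genes both high-zinc arrays lay above both control arrays, while dez groups lay apart, in either direction, for 71.6% of all tested probe sets. The changes of these genes were 1.95 ± 0.12, 1.40 ± 0.11 and 1.28 ± 0.12 (SE, limma adjusted p at most 2.31e-05). WRKY22, which acts downstream of MAP kinases in immunity, rose by 0.99 ± 0.14, and WRKY20 had a change of 0.15 (limma adjusted p = 0.406). For 4 of the 5 the interaction was also positive and past the threshold, and the same 4 rises passed under spike scaling.

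STZ, CML41, PUB23 and SD1-29 were chosen for the size of their rise after the values were seen, among called genes whose dez groups did not overlap. STZ (also ZAT10), a zinc finger repressor of stress responses, read 31.8 and 25.9 on control medium and 116.6 and 108.4 on high zinc. CML41, a calmodulin-like calcium sensor, read 11.5 and 12.2, then 61.4 and 67.5, a rise of 1.53 ± 0.10 (limma adjusted p = 3.05e-06). Wild type gave 14.6 to 19.7 for CML41 on all its arrays. The bright dez high-zinc arrays of CML41 counted in the brightness filter, so its being tested is not independent of its rise. PUB23, a ubiquitin ligase that restrains immune signalling, rose by 1.25 ± 0.15, from 59.4 and 64.5 to 181.2 and 158.0. SD1-29, a receptor kinase known to sense bacterial hydroxy fatty acids, rose by 1.24 ± 0.13, from 23.0 and 22.9 to 62.9 and 90.8. For each of these 4 genes the interaction passed, at 1.45, 1.57, 1.20 and 1.29. Each interaction contains the rise in dez for which the gene was chosen, so it adds no separate support. Among hormone genes, OPCL1, a CoA ligase of jasmonate synthesis, rose by 0.75 ± 0.12 (limma adjusted p = 9.6e-04). The jasmonate factors MYC3 and MYC4 had changes of -0.16 and -0.08 (limma adjusted p = 0.563 and 0.680).

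Of 4 tested genes of chitinases and pathogenesis-related proteins 2 rose and none fell (median 0.23), and 1 rose under spike scaling. The list held 19 genes. The large rises given by locus name below matched no list, so members of this family among them would not be counted here. OSM34, an osmotin-like protein, rose by 0.71 ± 0.17, from 1320.1 and 952.0 to 2152.1 and 1586.1. ChiC, a class V chitinase, rose by 0.38 ± 0.13 (limma adjusted p = 0.0412) and did not pass under spike scaling, whose test also carries the differences of the spike between replicates. PR-1-LIKE read 23.7 and 24.0, then 16.9 and 20.1, a change of -0.21 (limma adjusted p = 0.241). CHI, named as a putative chitinase, had a change of 0.08 (limma adjusted p = 0.791). PDF1.4, a member of the plant defensin family, read 13.4 and 14.8 on control medium and 224.9 and 271.0 on high zinc, against 16.1 to 30.4 on the wild-type arrays. This rise of 3.13 ± 0.13 (limma adjusted p = 1.57e-07) was among the 15 largest of probe sets with 1 gene. The bright arrays of PDF1.4 counted in the brightness filter, so its being tested is not independent of its rise. ARPN, a plantacyanin of the blue copper proteins, rose by 1.92 ± 0.13, from 158.8 and 139.0 to 631.0 and 584.5. It also read higher in wild type, 99.9 and 78.4, then 177.5 and 170.4, and its interaction was 1.06 ± 0.18 (limma adjusted p = 0.00238).

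**Figure D2:**
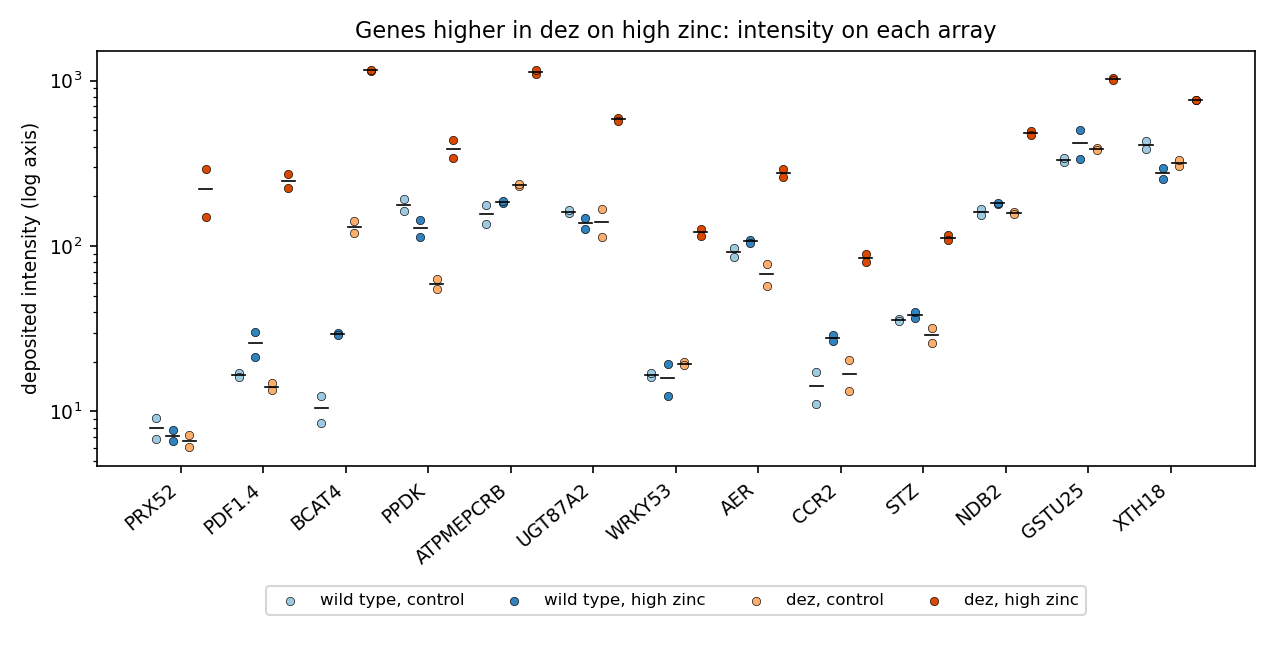
Deposited intensity (log axis) on each of the 8 arrays for 13 genes that rose with zinc in dez, with points for arrays and bars for the mean of 2 arrays per group. In every gene shown both dez high-zinc arrays lay above both dez control arrays, but the large rises were picked for this. Dez groups lay apart, in either direction, for 71.6% of all tested probe sets. PRX52, PDF1.4 and WRKY53 were dim on all other arrays, and their bright arrays counted in the brightness filter.

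Class III peroxidases, secreted enzymes that oxidise phenols and cross-link walls, rose as well. Of 6 tested genes 4 rose and none fell, with a median of 0.91, and the same counts held under spike scaling. PRX52 read 7.2 and 6.1 on control medium and 149.0 and 293.5 on high zinc, and between 6.6 and 9.1 on all wild-type arrays. Its 2 bright arrays entered the mean used by the brightness filter, so its place in these counts is not independent of its rise. Prx37 read 135.3 and 133.8, then 617.1 and 521.3, a rise of 1.95 ± 0.16 (limma adjusted p = 1.33e-05). AT5G64120 read 1423.8 and 1260.1, then 3270.4 and 2606.1, and rose by 1.11 ± 0.28 (limma adjusted p = 0.0114). AT2G41480 rose by 0.70 ± 0.12 in dez, and in wild type it read 131.1 and 147.3, then 251.5 and 287.8. Its interaction of -0.18 ± 0.17 did not pass (limma adjusted p = 0.524), unlike that of PRX52 and Prx37, at 3.36 and 1.47. The 2 members that did not pass were AT5G66390, with a change of -0.23, and PRXR1, with -0.09. TAPX, the thylakoid ascorbate peroxidase and so an enzyme of another class, fell by 1.13 ± 0.11 on the log2 scale, from 137.3 and 151.1 to 53.4 and 60.7 (limma adjusted p = 4.41e-05), but not past the threshold under spike scaling.

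Enzymes that conjugate toxic or secondary compounds moved in both directions. Of 9 tested glutathione transferases, which join glutathione to electrophiles, 5 rose and 2 fell (median 0.31), and under spike scaling 3 rose and none fell. GSTU25 read 391.6 and 383.6 on control medium and 1040.0 and 1003.5 on high zinc, and GSTU20 216.6 and 235.4, then 639.2 and 572.3. Both rose by 1.36, with SE of 0.16 and 0.15. GSTU27 rose by 0.76 ± 0.16, and 2 more, GSTL3 and GSTU16, rose by 0.46 and 0.31. GSTU18 fell by 1.00 ± 0.17 on the log2 scale, from 67.8 and 89.7 to 23.9 and 39.8. GSTF4 had a change of -0.39 ± 0.11 (limma adjusted p = 0.0223), which under spike scaling became 0.02.

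Of 28 tested UDP-glycosyltransferases, which attach sugars to hormones, phenols and glucosinolate precursors, 11 rose and 2 fell (median 0.33). Under spike scaling 8 rose and none fell. UGT87A2 stood apart, with 166.8 and 112.8 on control medium and 593.2 and 574.0 on high zinc, a rise of 1.97 ± 0.16 (limma adjusted p = 9.8e-06). In wild type it read 126.1 to 164.2 on all arrays, and the interaction was 2.18 ± 0.22. UGT73B4 rose by 1.14, UGT72E1, which glucosylates the aldehydes of monolignols, by 1.04 ± 0.10, and UGT74B1, which makes desulfoglucosinolates, by 1.00 ± 0.12. The falls were UGT76C1, with -0.52, and UGT78D1, a flavonol rhamnosyltransferase, with -0.46 ± 0.12. UGT78D1 read higher in wild type on high zinc, 48.2 and 39.6, then 81.9 and 71.4, and its interaction was -1.09 ± 0.17 (limma adjusted p = 0.00182). AER, a reductase of reactive alkenals from oxidised lipids, rose by 1.81 ± 0.14, from 78.3 and 57.6 to 291.7 and 262.8.

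Of 8 tested cytochrome P450 genes, all but 1 of the CYP71B group, 2 rose and 2 fell (median -0.13). With 36.8% called among all tested genes with a symbol, these counts are not read as a result about the group. CYP71B6 rose by 0.63 ± 0.15 and CYP71B34 fell by 0.87 ± 0.15 on the log2 scale, from 87.9 and 93.7 to 38.8 and 46.2. CYP71B23 rose by 0.68 ± 0.22 (limma adjusted p = 0.0319), and its high-zinc arrays were far apart at 152.9 and 260.7. CYP71B29 had a change of -0.32 ± 0.11 (limma adjusted p = 0.0407), which under spike scaling became 0.10.

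Of 4 tested genes of lignin and phenylpropanoid synthesis 2 rose (median 0.65), also under spike scaling. CCR2 (AT1G80820), a cinnamoyl-CoA reductase that makes the aldehydes of monolignols, read 13.3 and 20.6 on control medium and 80.7 and 89.9 on high zinc, a rise of 1.63 ± 0.13 (limma adjusted p = 1.26e-05). HCT, which makes the shikimate esters of p-coumarate, rose by 1.23 ± 0.11, from 480.4 and 453.1 to 1145.5 and 1082.6. CCOAMT, a methyltransferase of the same route, and ALDH2C4, which makes ferulate and sinapate, had changes of 0.07 and -0.10 (limma adjusted p = 0.788 and 0.653). PRN, a pirin known to oxidise quercetin and to bind a G protein, rose by 1.66 ± 0.12, from 29.3 and 31.6 to 115.7 and 148.0.

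Of 4 tested genes of aliphatic glucosinolates, sulfur compounds made from methionine, 3 rose (median 1.19), under spike scaling too. BCAT4, the aminotransferase that starts chain elongation of methionine, read 120.6 and 142.1 on control medium and 1146.3 and 1164.7 on high zinc. Its rise was 3.00 ± 0.12 (limma adjusted p = 1.33e-07), and it was dim in wild type, 12.4 and 8.5, then 29.9 and 29.0. GTR1, a glucosinolate importer, rose by 1.01 ± 0.13, while GTR2, a second importer, read 348.2 and 356.9, then 364.8 and 336.8 (change -0.01, limma adjusted p = 0.963). GSTU20, given above, is known to act in this pathway and counts as the third rise. In sulfur assimilation, which supplies cysteine and methionine, APS3 and SIR rose by 0.61 ± 0.13 and 0.39 ± 0.10, and APS4, also an ATP sulfurylase, fell by 0.43 ± 0.11 on the log2 scale (limma adjusted p = 0.014). None of the 3 passed under spike scaling. HL (also AHL), a phosphatase of phosphoadenosine phosphate from sulfation, rose by 1.23 ± 0.11, from 136.0 and 148.1 to 333.8 and 375.6.

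Beta-glucosidases, which release sugars from glucosides, had 5 rises and no fall among 7 tested genes (median 0.81), unchanged under spike scaling. BGLU25 read 113.0 and 125.0, then 370.4 and 311.7, and rose by 1.40 ± 0.13. BGLU15, which acts on flavonol glycosides, rose by 1.16 ± 0.11, from 109.9 and 101.9 to 257.3 and 256.3. BGLU40 and BGLU44 rose by 0.81 ± 0.14 and 0.75 ± 0.19. BGLU46, a monolignol glucosidase, and BGLU16 had changes of 0.39 and 0.09 and did not pass.

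Pectin enzymes, expansins and xyloglucan enzymes, and TBL genes each had calls in both directions. Of 3 tested pectin enzymes 2 rose and 1 fell (median 0.72), also under spike scaling. The list held 42 genes, and genes given by locus name below are not counted in it. ATPMEPCRB (also PME41), a pectin methylesterase, read 231.9 and 238.0 on control medium and 1099.9 and 1167.0 on high zinc, a rise of 2.19 ± 0.13, and ATPMEPCRD read 442.0 and 537.8, then 38.4 and 36.5, a fall of 3.24 ± 0.12 on the log2 scale (limma adjusted p = 1.41e-06 and 1.04e-07). PMEPCRF rose by 0.72 ± 0.12. The interaction passed for all 3, at 1.97, -2.76 and 0.91.

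Of 17 tested expansins and xyloglucan enzymes, which loosen or rejoin wall polymers, 7 rose and 3 fell (median 0.30), and under spike scaling 5 rose and 1 fell. XTH18 read 304.4 and 330.5, then 767.0 and 763.1, and rose by 1.23 ± 0.11. In wild type XTH18 read 383.9 and 431.8, then 295.0 and 254.7, so its interaction reached 1.77 ± 0.16 (limma adjusted p = 8.59e-05). EXLA1, an expansin-like protein, had the same pattern, with 55.2 and 50.6, then 142.4 and 192.0 in dez and 77.7 and 76.1, then 61.0 and 48.0 in wild type. XTH32 rose by 1.04 ± 0.13, and XTH19, XTH20, EXPA4 and EXPA9 rose by 0.46 to 0.71. The falls were EXPA8, from 106.4 and 161.6 to 36.2 and 28.5, EXPB1, from 62.4 and 79.2 to 30.3 and 24.4, and XTH16, from 344.0 and 372.6 to 172.9 and 186.4. These 3 fell by 1.61 ± 0.24, 1.00 ± 0.14 and 0.94 ± 0.12 on the log2 scale, and of them EXPA8 passed under spike scaling.

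Further wall genes were GH9B8, an endoglucanase of family 9, which fell by 1.30 ± 0.12 on the log2 scale, and CSLD2, a cellulose synthase-like protein of tip growth, which rose by 0.48 ± 0.12. HRGP1, a hydroxyproline-rich glycoprotein, rose by 0.78 ± 0.14, from 50.2 and 38.5 to 86.8 on both arrays. In the TBL family, relatives of TBR, 2 of 13 tested genes rose and 4 fell (median -0.02, and 0.39 under spike scaling, where 1 rose and none fell). Among all tested genes with a symbol 36.8% were called, so these 6 calls are not read as a result about the family. TBL36 fell by 0.90 ± 0.13 on the log2 scale, from 118.7 and 117.4 to 63.6 and 48.9, TBL25 by 0.85 ± 0.12 and TBL45 by 1.30 ± 0.14. TBL39 and TBL18 rose by 0.86 ± 0.11 and 0.50 ± 0.11, and the fourth fall was TBL38, whose change of -0.39 became 0.02 under spike scaling. TBR itself read 112.4 and 131.4 on control medium and 150.2 and 138.2 on high zinc, a change of 0.22 (limma adjusted p = 0.188). THE1, a receptor kinase that monitors the wall, had a change of -0.42 ± 0.12 (limma adjusted p = 0.0214), and its relative FER one of 0.14 (limma adjusted p = 0.330).

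Several genes that turn reserves into sugars or bypass steps of respiration rose. PPDK, pyruvate orthophosphate dikinase, which feeds carbon skeletons into gluconeogenesis in seedlings, read 63.0 and 55.2 on control medium and 341.1 and 436.2 on high zinc. In wild type it read 162.0 and 193.8, then 144.6 and 113.6, so dez lay below wild type on control medium and above it on high zinc. The rise in dez was 2.42 ± 0.15 and the interaction 2.84 ± 0.22 (limma adjusted p = 2.55e-06 and 3.23e-05). Of the 4 tested genes listed with fatty acid breakdown and the glyoxylate cycle 3 rose (median 0.67), and 2 under spike scaling. ICL, isocitrate lyase of the glyoxylate cycle, rose by 0.77 ± 0.20 (limma adjusted p = 0.0148), from 17.2 and 19.1 to 29.5 and 58.2, with high-zinc arrays far apart. AIM1, an enzyme of beta-oxidation, rose by 0.57 ± 0.14, and SDP1, the oil body lipase, had a change of -0.09 (limma adjusted p = 0.645).

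NDB2, a mitochondrial NADH dehydrogenase that bypasses complex I, read 160.2 and 156.6 on control medium and 493.1 and 469.9 on high zinc, and 153.7 to 182.6 on the wild-type arrays. Its rise was 1.51 ± 0.10 (limma adjusted p = 3.48e-06), while NDB1 and NDC1, of the same enzyme family, had changes of -0.27 and -0.29 that did not pass. APL3, a large subunit of the enzyme that makes ADP-glucose for starch, rose by 1.65 ± 0.26, from 22.8 and 26.4 to 75.6 and 161.9. PDC2, a pyruvate decarboxylase of fermentation, rose by 0.50 ± 0.14 (limma adjusted p = 0.0207). None of the 7 tested genes of leucine, valine and lysine breakdown passed in limma (median 0.05), and 0 of them had an unadjusted p under 0.05.

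Sugar transporters were lower or not called. Of 8 tested genes of sugar transport and invertase 4 fell (median -0.34), but none fell under spike scaling, where the median was 0.07. SWEET11, a sucrose exporter, read 469.6 and 503.9 on control medium and 309.7 and 275.0 on high zinc. In wild type it read 913.1 and 1047.0, then 605.0 and 620.9, and the interaction was -0.05 ± 0.16 (limma adjusted p = 0.872). SWEET2, a vacuolar glucose carrier, fell by 0.60 ± 0.17 and SWEET1 by 0.49 ± 0.14 on the log2 scale. SFP1 had a change of -0.35 ± 0.11, which under spike scaling became 0.06.

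Of 7 tested genes of the iron deficiency response 3 rose (median 0.22), under spike scaling too. PYE, a bHLH factor of iron homeostasis, read 28.4 and 25.7 on control medium and 60.7 and 61.2 on high zinc, a rise of 0.84 ± 0.11, against 24.3 to 32.2 in wild type. AT3G13610 (F6'H1), which makes the precursor of iron-mobilising coumarins, rose by 1.04 ± 0.15, from 490.8 and 404.4 to 838.6 and 1041.6. BGLU42, a beta-glucosidase known from coumarin release and counted in that list also, rose by 1.01 ± 0.14, from 81.5 and 83.1 to 173.2 and 192.6. The 4 that did not pass, bHLH34, bHLH104, bHLH115 and ILR3, are bHLH factors that act upstream of PYE, and their changes lay between -0.16 and 0.22. LPR2, a ferroxidase of the root response to low phosphate, rose by 1.18 ± 0.17, from 61.9 and 65.1 to 134.2 and 198.8.

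Of 64 listed zinc and other metal transport genes 3 were tested. ZIP6, of the zinc and iron transporter family, read 57.8 and 51.0, then 39.6 and 40.1, a change of -0.33 ± 0.10 (limma adjusted p = 0.029) that under spike scaling became 0.08. MTP11, a manganese transporter, and bZIP19, a factor of the zinc deficiency response, had changes of 0.12 and 0.16 (limma adjusted p = 0.450 and 0.338). MT1C, a metallothionein, read 2460.3 and 2298.5, then 2722.9 and 3449.0 (change 0.36, limma adjusted p = 0.100).

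Folding of secreted proteins gave a mixed result. Of 7 tested genes of the endoplasmic reticulum 2 rose and 1 fell (median 0.23), while 36.8% of all tested genes with a symbol were called. ATERDJ3B, a co-chaperone, rose by 0.93 ± 0.17, from 245.2 and 252.0 to 516.6 and 462.4, and CRT1b, a calreticulin, by 0.79 ± 0.11. DER2.1, a derlin of protein degradation, had a change of -0.48 ± 0.11 (limma adjusted p = 0.00884), which did not pass under spike scaling. BZIP60 and BZIP28, factors of the unfolded protein response, had changes of 0.29 and 0.00. Hsp70-2, a cytosolic chaperone, rose by 0.69 ± 0.12.

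**Figure D3:**
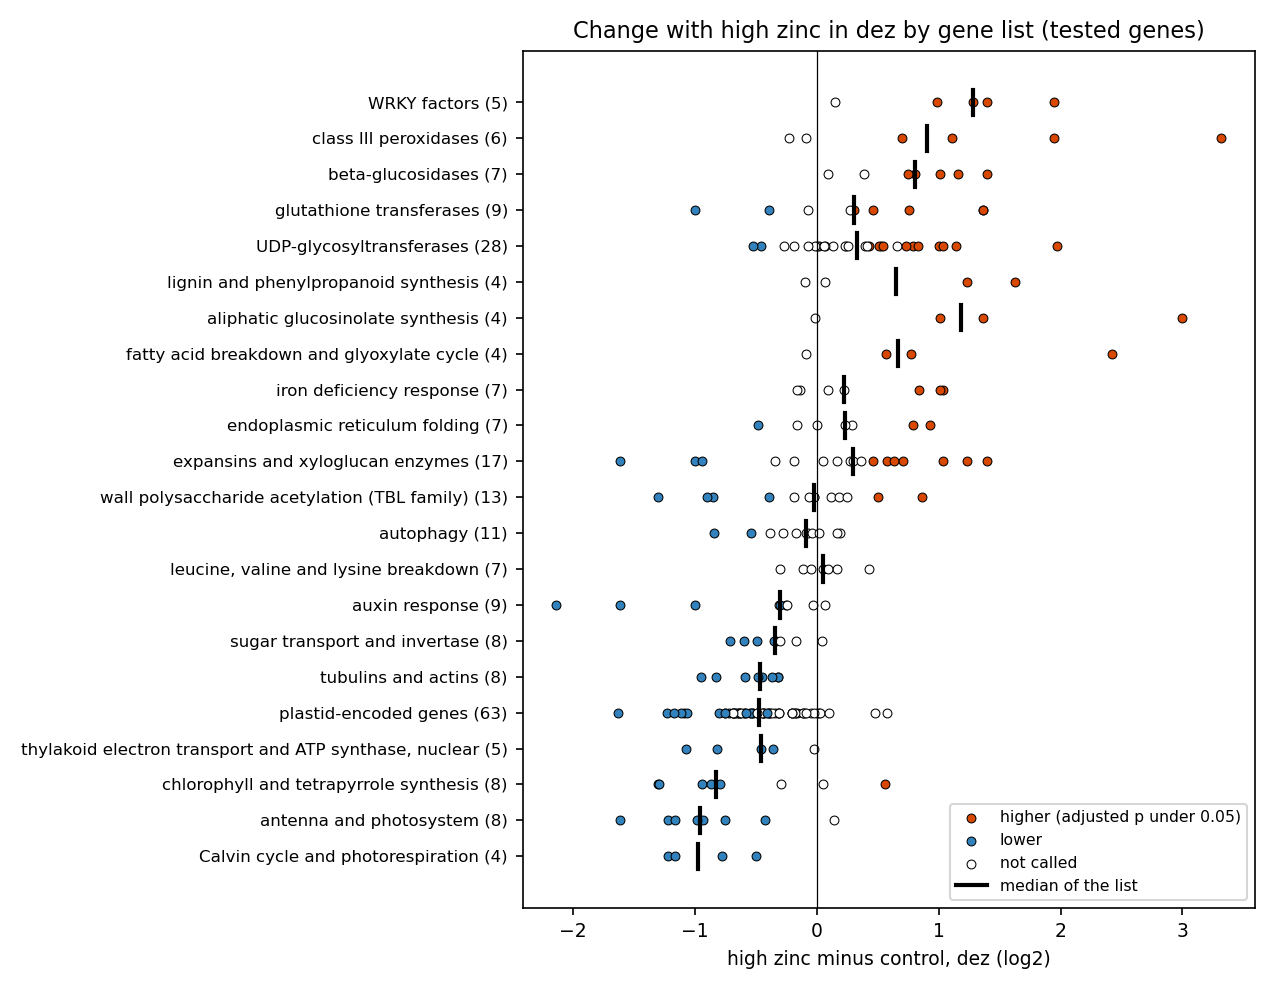
Change with high zinc in dez (horizontal axis, log2) for each tested gene of 22 lists (number of tested genes in brackets), orange where higher, blue where lower and white where the limma adjusted p was 0.05 or above, with a bar at each median. Medians run from 1.28 for WRKY factors to -0.97 for the Calvin cycle and photorespiration.

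Nuclear genes of photosynthesis fell together. Of 8 tested antenna and photosystem genes, from a list of 50, 7 fell (median -0.96), but under spike scaling 1 did (median -0.55). PSAN, a lumenal subunit of photosystem I, read 750.8 and 1039.9 on control medium and 293.8 and 263.7 on high zinc, and in wild type 666.9 and 991.8, then 1015.9 and 1336.6. Its interaction was -2.12 ± 0.29 (limma adjusted p = 7.96e-04), and it was the gene that passed under spike scaling. PSB27, an assembly factor of photosystem II, fell by 1.22 ± 0.13 on the log2 scale, from 967.3 and 1062.8 to 443.8 and 406.4. The antenna genes LHCB4.1 and LHCB4.2 fell by 0.98 ± 0.13 and 1.16 ± 0.14 on the log2 scale, and LHCB4.3 had a change of 0.14. In bulk seedlings fewer cells with plastids of this kind and less of these transcripts per cell cannot be told apart.

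Carbon fixation genes gave the same picture. All 4 tested genes of the Calvin cycle and photorespiration fell (median -0.97), and none did under spike scaling (median -0.56). PRK, phosphoribulokinase, read 610.1 and 748.7, then 258.5 and 307.1, and HPR, hydroxypyruvate reductase of photorespiration, 342.9 and 457.9, then 165.6 and 170.2. SBPASE and RCA, the bisphosphatase of the cycle and Rubisco activase, fell by 0.78 ± 0.14 and 0.50 ± 0.12 on the log2 scale. ALDH11A3, a glyceraldehyde phosphate dehydrogenase of the cytosol that makes NADPH, fell by 1.64 ± 0.14 on the log2 scale, from 461.5 and 364.9 to 122.2 and 118.9, under spike scaling too. Of 5 tested nuclear genes of thylakoid electron transport and ATP synthase 4 fell (median -0.46), but none under spike scaling (median -0.05, with ATPC2 at 0.05). NdhL and NdhN, subunits of the NDH complex of cyclic electron flow, fell by 1.07 ± 0.13 and 0.82 ± 0.13 on the log2 scale, and NdhS, a further subunit, by 1.24 ± 0.13. CYTC6A, a cytochrome of the thylakoid lumen, read 118.9 and 109.6, then 24.6 and 29.0, a fall of 1.61 ± 0.12 on the log2 scale that passed under spike scaling.

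Chlorophyll synthesis had 5 falls and 1 rise among 8 tested genes (median -0.83), and neither under spike scaling (median -0.42). CHLM, the methyltransferase of magnesium protoporphyrin, read 746.1 and 795.8 on control medium and 334.2 and 277.2 on high zinc. PORB, a protochlorophyllide oxidoreductase, read 1740.7 and 1412.2, then 705.8 and 561.5. They fell by 1.30 ± 0.12 and 1.29 ± 0.14 on the log2 scale (limma adjusted p = 3.32e-05 and 8.23e-05). HEME1 and HEME2, uroporphyrinogen decarboxylases, and CHLI2, a subunit of magnesium chelatase, fell by 0.94, 0.87 and 0.79 on the log2 scale. The rise was HEMA2, a glutamyl-tRNA reductase, with 0.56, and GSA1 and HEMB1, of the early steps, had changes of 0.05 and -0.29.

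**Figure D4:**
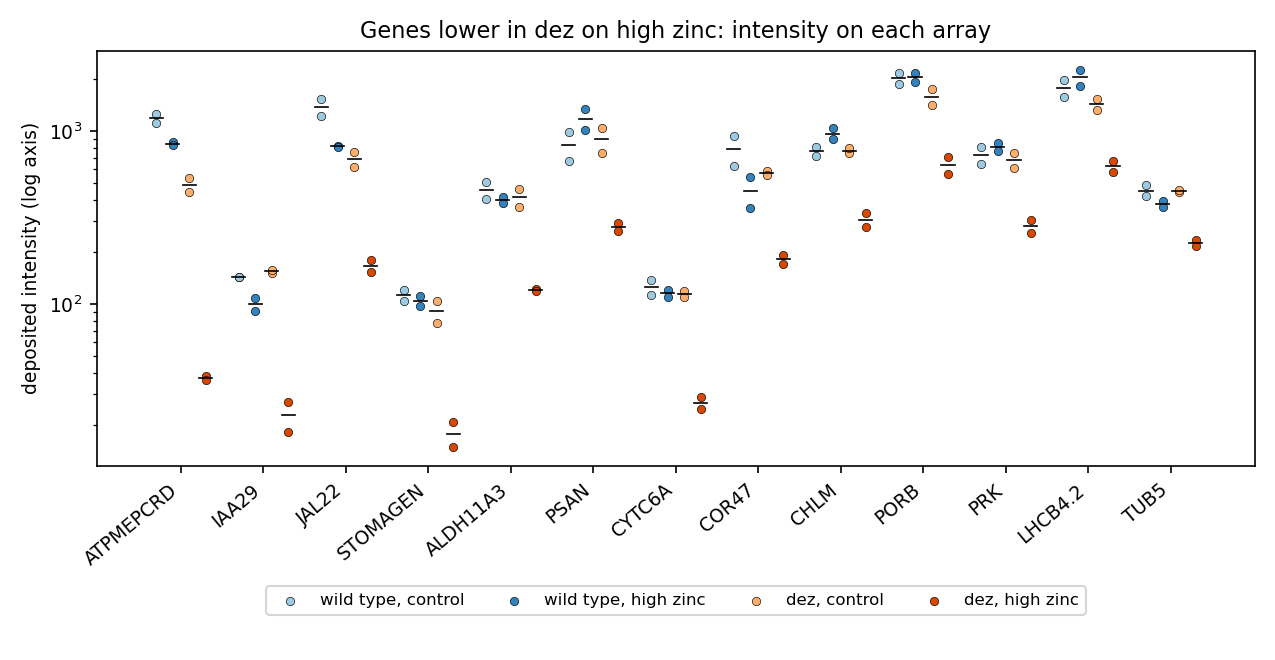
Deposited intensity (log axis) on each of the 8 arrays for 13 genes that fell with zinc in dez, with points for arrays and bars for the mean of 2 arrays per group. In every gene shown both dez high-zinc arrays lay below both dez control arrays, but the large falls were picked for this. Dez groups lay apart, in either direction, for 71.6% of all tested probe sets. PSAN and CHLM read higher on high zinc than on control medium in the wild-type means.

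Genes encoded in the plastid genome moved the same way. Of 63 tested genes 26 fell and none rose (median -0.47), but with spike scaling 1 fell and the median was -0.06, and with the 3'-5' gap as a covariate 14 fell. psbZ, of photosystem II, read 1009.7 and 992.6 on control medium and 470.1 and 473.8 on high zinc, against 847.9 to 982.6 in wild type. psbC, an inner antenna protein of photosystem II, fell by 1.09 ± 0.17 on the log2 scale, psbA, for the D1 protein, by 1.23 ± 0.32 and rbcL, for the large subunit of Rubisco, by 0.80. petL, of the cytochrome b6f complex, fell by 1.63 ± 0.36 on the log2 scale, and its wild-type arrays spread from 184.3 to 492.7. psaA and psaB, the core proteins of photosystem I, had changes of 0.58 and -0.05 and did not pass. Of the genes for ATP synthase, the 5 tested, atpA, atpB, atpE, atpF and atpH, lay between -0.52 and 0.00 and did not pass. ATAB2, a nuclear gene for translation of photosystem mRNAs in the plastid, fell by 1.14 ± 0.11 on the log2 scale, from 178.1 and 167.1 to 69.1 and 70.2. The 3 tested mitochondrion-encoded genes, nad1, nad4 and cox1, had changes of 0.08, -0.28 and 0.00, and none passed in limma, with 0 at an unadjusted p under 0.05.

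Cytoskeleton genes fell. Of 8 tested tubulins and actins 7 fell (median -0.47), but none under spike scaling, where the median was -0.05 and TUA6 was at 0.05. TUB5, a beta-tubulin, read 445.9 and 453.1 on control medium and 234.4 and 215.7 on high zinc, and TUB6 689.1 and 720.1, then 403.0 and 377.0. They fell by 0.95 ± 0.11 and 0.83 ± 0.10 on the log2 scale, and their interactions were -0.70 and -0.64 (limma adjusted p = 0.0107 and 0.00799). ACT11, an actin, fell by 0.59 ± 0.11 on the log2 scale. The 5 tested histone genes had a median of -0.29 and none passed in limma, while 3 of them had an unadjusted p under 0.05, lower on high zinc (lowest adjusted p = 0.063).

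Genes of auxin-driven growth were lower or not called. Of 9 tested auxin response genes, from a list of 134, 4 fell (median -0.30), and under spike scaling 2 did, with a median of 0.11. The median change of the list in wild type was -0.29, and its median interaction was -0.09, so this median shift was not particular to dez. IAA29, a repressor of the auxin response that is itself induced by auxin, read 150.7 and 157.7 on control medium and 27.3 and 18.3 on high zinc. AT3G53250 (SAUR57), of a family of small auxin-induced proteins, read 44.4 and 54.1, then 5.0 and 5.8, a fall of 1.61 ± 0.11 on the log2 scale (limma adjusted p = 4.21e-06). WAG2, a kinase that steers auxin transport, fell by 1.00 ± 0.12 on the log2 scale, from 67.0 and 80.8 to 28.1 and 29.6. HAT2, an auxin-induced homeodomain factor, had a change of -0.30 ± 0.10 (limma adjusted p = 0.0467), which under spike scaling became 0.11. In wild type the change of HAT2 was -0.43, and its interaction of 0.13 did not pass (limma adjusted p = 0.603). The auxin conjugating enzyme GH3.17 and the synthesis gene YUC2 had changes of -0.31 and -0.24 and did not pass. GID1B, a gibberellin receptor, rose by 0.56 ± 0.12, and its relatives GID1A and GID1C had changes of -0.13 and -0.19.

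STOMAGEN, SIM, DRT100 and SBT1.3 were chosen for the size of their fall after the values were seen, among called genes whose dez groups did not overlap. STOMAGEN, a peptide of the leaf mesophyll that promotes stomata, read 104.4 and 77.9 on control medium and 20.7 and 14.9 on high zinc, against 97.3 to 120.5 in wild type. It fell by 1.66 ± 0.15 on the log2 scale (limma adjusted p = 2.01e-05), and its interaction was -1.56 ± 0.21. That interaction contains the fall for which STOMAGEN was chosen, so it adds no separate support. SIM, an inhibitor of cyclin-dependent kinases that favours endoreduplication, fell by 1.15 ± 0.12 on the log2 scale, from 350.7 and 323.3 to 135.9 and 151.3. COR47, a dehydrin of cold and drought, read 583.8 and 553.6, then 191.9 and 170.4, and its interaction of -0.79 ± 0.29 did not pass (limma adjusted p = 0.086). JAL22, a jacalin-related lectin, fell by 1.95 ± 0.14 on the log2 scale, from 620.1 and 755.7 to 152.7 and 180.3. DRT100, a leucine-rich repeat protein, fell by 1.30 ± 0.10 and SBT1.3, a subtilase, by 1.28 ± 0.19 on the log2 scale. Of 11 tested autophagy genes ATG8E and ATG8C, ubiquitin-like proteins of the autophagosome, fell by 0.84 ± 0.11 and 0.54 ± 0.14 on the log2 scale, though not past the threshold under spike scaling, and the median was -0.09. The share lower over all tested probe sets was 17.4%.

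Many of the largest changes were in genes for which the annotation gives a locus name alone, and no role is given for them here. The counts by gene function above leave these genes out, so they can miss members of the same families. The 15 largest rises are all given here or above, and of the 15 largest falls 7 are. AT2G43620 read 122.2 and 126.2 on control medium and 1944.3 and 2492.4 on high zinc, a rise of 3.98 ± 0.13 (limma adjusted p = 5.83e-08). AT4G33720 rose by 3.96 ± 0.11, AT4G12500 by 3.90 ± 0.11, AT4G12490 by 3.84 ± 0.19 and AT4G01700 by 3.16 ± 0.10. Several genes of this paragraph were dim outside the dez high-zinc arrays, such as AT4G33720, at most 24.9, and AT4G12500, at most 12.4. Their bright arrays counted in the brightness filter, so their being tested is not independent of their rise. AT5G55050 read 18.2 and 23.1 on control medium and 447.1 and 508.2 on high zinc, and AT4G22470 55.2 and 42.3, then 760.0 and 868.5. Their rises were 3.75 ± 0.13 and 3.68 ± 0.17, and on the wild-type arrays the first read 18.8 to 26.3 and the second 32.5 to 54.1. AT2G47550 rose by 3.14 ± 0.14, AT1G43910 by 3.01 ± 0.17, AT2G17740 by 2.94 ± 0.21 and AT5G35735 by 2.83 ± 0.15. AT1G65500 rose by 3.39 ± 0.27, with high-zinc arrays far apart at 228.6 and 512.5. AT1G09750 had a mean of 679.6 ± 9.14 and then 64.7 ± 0.947 (SD, n = 2), a fall of 3.11 ± 0.12 on the log2 scale (limma adjusted p = 1.33e-07). AT5G44440 fell by 3.02 ± 0.14, AT5G48490 by 2.73 ± 0.27 and AT2G05540 by 2.42 ± 0.20 on the log2 scale. AT5G48490 read higher in wild type on high zinc, 450.9 and 677.2, then 801.3 and 1303.7, and its interaction was -3.59 ± 0.38 (limma adjusted p = 2.03e-04). The 4 falls and the 12 rises of this paragraph all passed under spike scaling too.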

How the data were processed

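Biotin-labelled RNA was read with 1 ATH1 array per sample, per the labels' protocols. The deposited table holds 1 linear intensity per probe set, and MAS5 is named in the submitters' processing notes, with neither its role nor its version. No source used here gives the authors' scaling. Array medians lay between 34.7 and 37.2, so the arrays already shared a scale.

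The 64 control probe sets were left out, and log2(intensity + 16) was taken, which understates changes of dim genes. Probe sets in the upper 60% by their mean log2 value were kept. A model with 4 group means was fitted to the 8 arrays in limma 3.58.1 (R 4.3.3, eBayes with a trend), with Benjamini-Hochberg adjustment over 13648 probe sets per comparison. On simulated data for zinc in dez (13648 genes), the test recovered 84% of true changes of 1 and 37% of true changes of 0.5 on the log2 scale, with 3 false calls of 124. For the interaction 43% and 0% were, with 1 false call of 44. The simulation changed 100 genes by each size, a far smaller share than the 34.0% and 19.4% of probe sets called in the data. The adjusted threshold is stricter when few genes change, so these shares recovered do not carry over to the data.

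Genes were named from the platform annotation updated to RefSeq symbols. 13513 probe sets had 1 gene, 503 several and 8730 were not listed, and the last 2 kinds were not named. 53.4% of tested probe sets were named, and the brightest stood for a gene. The naming rule selects the 15 largest rises and falls with dez groups apart, at most 5 genes of each list (lowest adjusted p first), and TBR. Of 204 genes in the text, 153 follow from the rule and 51 were added after their values were seen, mostly from the 30 largest rises and falls among genes with a symbol. These largest changes were taken among called genes with dez groups apart. Not every gene that the rule selects is described, and 8 of the 15 largest falls are not. All 70 gene lists, and the comparison itself, were chosen with earlier results of these data known, so their counts are descriptions. 34 lists had 3 or more tested genes, and entries found to share a symbol with another gene were left out.

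Alternatives were quantile normalization, median centring, scaling to the poly-A spike controls, a pseudocount of 1 or of 64, the filter left out or set to the upper 40%, other eBayes settings, the 3'-5' covariate, a replicate block, each array left out, only the 4 dez arrays and 2 other thresholds. Replicates are biological per the labels. Deviations of same-numbered arrays had correlations from -0.36 to 0.37. With 2 arrays per group these cannot show whether the numbers pair samples, and no pairing was modelled in the main fit.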

Additional observations from a re-analysis of the deposited data

Results flagged for a closer look

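For 2653 of 13648 probe sets (19.4%) the change with zinc differed between dez and wild type by the limma interaction (change in dez minus change in wild type, adjusted p under 0.05). Among the 204 genes named in the report 111 passed. Named genes were mostly chosen by their change in dez, which is part of the interaction. The 111 of 204 therefore largely follow from that choice and are no separate result. The interactions of these named genes on the log2 scale are given here by function, without those already set out above unless a value is repeated for completeness.

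Among regulators and signalling genes the interaction was 1.99 for WRKY53, 1.40 for WRKY47, 1.32 for WRKY6, 1.01 for WRKY22, 1.45 for STZ, 1.57 for CML41, 1.20 for PUB23 and 1.29 for SD1-29. Defence and stress proteins gave 2.77 for PDF1.4, 1.06 for ARPN, 0.59 for Hsp70-2 and 0.55 for CRT1b. OPCL1 and GID1B both had 0.61. The peroxidases PRX52 and Prx37 had 3.36 and 1.47, and TAPX of the thylakoid had -1.26.

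In detoxification GSTU25 had 1.07, GSTU20 1.03, GSTU18 -1.25, GSTF4 -0.53 and AER 1.62. Among glycosyltransferases the values were 2.18 for UGT87A2, 1.46 for UGT73B4, 0.99 for UGT74B1, 0.57 for UGT72E1, -0.58 for UGT76C1 and -1.09 for UGT78D1. BGLU25 had 1.28, BGLU42 0.89, BGLU40 0.73 and BGLU15 0.70. BCAT4 had 2.21, GTR1 0.81, APS3 0.67, HL 1.12, CCR2 (AT1G80820) 1.08, HCT 0.95 and PRN 1.48.

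Wall genes with a more positive change in dez were ATPMEPCRB with 1.97, EXLA1 with 1.80, XTH18 with 1.77, XTH19 with 1.72, PMEPCRF with 0.91, TBL39 with 0.77 and HRGP1 with 0.66. Those with a more negative change were ATPMEPCRD with -2.76, TBL45 with -1.49, EXPA8 with -1.37, EXPB1 with -1.27, XTH16 with -1.25, TBL36 with -1.18, GH9B8 with -1.09 and TBL25 with -0.74. FACT had -1.39.

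PPDK had 2.84, APL3 1.66 and NDB2 1.35, and the iron genes LPR2 and PYE had 1.29 and 0.73. Every photosynthesis gene that passed had a more negative change in dez. Among those named above the values were -2.12 for PSAN, -1.55 for PSB27, -1.37 for LHCB4.2, -1.23 for LHCB4.1, -1.18 for NdhL, -1.11 for NdhN, -1.47 for NdhS and -1.50 for CYTC6A. PRK had -1.38, HPR -1.55, SBPASE -1.03 and RCA -0.95, and the cytosolic enzyme ALDH11A3, which is in none of the photosynthesis lists, had -1.46. In chlorophyll synthesis CHLM had -1.63, HEME2 -1.37, PORB -1.31, HEME1 -1.30, CHLI2 -1.24 and HEMB1 -0.72. Plastid-encoded genes had -2.23 for petL, -1.31 for rbcL, -1.10 for psbC and -0.97 for psbZ, and ATAB2 had -1.27.

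The cytoskeleton genes TUB5, TUB6 and ACT11 had -0.70, -0.64 and -0.53. In auxin growth IAA29 had -1.68, AT3G53250 -1.24 and WAG2 -0.70. Further falls were SBT1.3 with -1.82, STOMAGEN with -1.56, DRT100 with -1.25, JAL22 with -1.21 and SIM with -0.87. Among genes with a locus name alone the interaction was 4.10 for AT4G33720, 3.79 for AT4G12500, 3.35 for AT2G43620, 3.31 for AT4G12490, 2.93 for AT4G01700, 3.68 for AT5G55050, 3.65 for AT4G22470, 3.02 for AT1G43910, 2.86 for AT1G65500, 2.85 for AT2G47550, 2.72 for AT2G17740 and 2.47 for AT5G35735. It was -3.59 for AT5G48490, -3.38 for AT1G09750, -3.03 for AT5G44440 and -2.00 for AT2G05540.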

How the results depend on the processing

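The count of 4645 probe sets changed by zinc in dez was 1156 under spike scaling (1058 higher and 98 lower), 2915 at an adjusted p under 0.01 and 805 at 2-fold or more. The interaction count of 2653 was 244 (214 positive and 30 negative), 1412 and 941 under the same settings. Spike scaling reversed the sign of 8 named falls, to 0.02 for GSTF4, 0.10 for CYP71B29, 0.05 for ATPC2, 0.05 for TUA6, 0.11 for HAT2, 0.08 for ZIP6, 0.02 for TBL38 and 0.06 for SFP1, by adding 0.41 to each change. Of 176 called genes that the naming rule and the later additions select, 95 kept their call under it, 72 of 86 rises and 23 of 90 falls. Leaving out 1 array gave 2868 to 4853 changed probe sets, with 2964 and 2868 when dez control replicate 1 or 2 was left out, which leaves a lone control array assumed to vary like the other groups. The interaction count then ran from 1621, without dez control replicate 2, to 2791. With a replicate block 4371 and 2464 passed, and whether the numbers pair samples is not known. The other settings kept both counts within 1.5 times. The brightness filter and 2 arrays per group limit what can be called, and no background level is given in the table, so dim probe sets have no stated floor.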

Other observations

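Lists with 1 or 2 tested genes gave single values for zinc in dez. LYC, the lycopene cyclase of carotenoid synthesis, read 139.9 and 145.3 on control medium and 96.5 and 108.2 on high zinc, a change of -0.42 ± 0.12 (SE, limma adjusted p = 0.017, n = 2) that under spike scaling was -0.01. Z-ISO, an isomerase of the same route, had a change of 0.08 (limma adjusted p = 0.657). The proteasome subunit RPN12a, the iron-sulfur scaffold ISU1 and the clock gene GI had changes of 0.03, 0.08 and -0.13, none past the threshold. HYH and FHL, of light signalling, had changes of 0.15 and -0.36 (limma adjusted p = 0.531 and 0.0831). LTI30, a dehydrin like COR47, read 77.4 and 60.4, then 92.6 and 102.2, a change of 0.42 (limma adjusted p = 0.159).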
